A study of Homo sapiens with 12 samples.

Results

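SW1353, an established human chondrosarcoma line, was transfected with an inhibitor control or a mimic control, 2 non-targeting oligonucleotides that serve as the references for a miR-455 inhibitor and a miR-455 mimic. This section sets the 3 inhibitor control libraries against the 3 mimic control libraries, 6 of the 12 RNA sequencing libraries of the series, so neither arm carries an oligonucleotide aimed at miR-455. Per the study's methods, each oligonucleotide was given at 50 nM with a lipid reagent and RNA was taken at 48 h, so transfection itself is shared by both arms and no untransfected cells were used here. Nothing in the labels says that the numbered samples of a group came from separate cultures, so the p-values measure the spread between these samples, which may be technical. The genes described are well-expressed single-copy genes: protein coding genes with a mean of at least 20 scaled counts over the 6 libraries, 1 identifier per symbol, and under 20% of the 31-base words of their transcripts found in transcripts of another gene. This rule took 10297 of the 16468 genes tested and of the 40490 identifiers listed. It does not remove every copy, since 160 of the 10297 share identical values in all 12 libraries with another identifier. Words were counted in GENCODE 29 genes only, which hold 35493 of the listed identifiers, so copies among the rest were not counted. A scaled count is an estimated read count divided by a library size factor, not corrected for transcript length, so levels are compared between groups and not between genes.

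A microRNA mimic is a synthetic duplex that is loaded into Argonaute, the protein that carries microRNAs to their targets, and a microRNA inhibitor is a single antisense strand that pairs with a microRNA and blocks it. Their controls have the same kind of chemistry with a sequence not meant to match a target, so the 2 controls differ in strandedness as well as in sequence, and cells can respond to foreign RNA through sensors that switch on interferon-stimulated genes. Per the study's methods, the active oligonucleotides copy or block the 3p strand of miR-455, which both controls are meant to leave alone. Both mature strands of miR-455 are shown from RefSeq with the seed, bases 2 to 8, in capitals (GRCh38.p14, chromosome 9, plus strand, 114209449 to 114209470 for the 5p strand and 114209487 to 114209507 for the 3p strand). The sequences of the controls are not given in the sources used here.
hsa-miR-455-5p: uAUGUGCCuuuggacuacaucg
hsa-miR-455-3p: gCAGUCCAugggcauauacac

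The 6 control libraries summed to 10974101 to 11344059 scaled counts. From the spacing of low values of single-transcript genes they held an estimated 10700000 to 12300000 counts. Libraries of 1 control group correlated with r of 0.9748 to 0.9783, and libraries of different control groups with r of 0.9496 to 0.9639. These correlations were over the log2 values of the 13769 tested genes with a mean of at least 20. The cells carried the transcripts of a mesenchymal line: VIM, the intermediate filament vimentin, lay at 33600 to 36200 scaled counts in inhibitor control cells and at 35000 to 36200 in mimic control cells, and SOX9, the cartilage transcription factor, at 994 to 1160 and at 1110 to 1200. COL3A1, a fibrillar collagen that the marker set also held, was low, at 24.0 to 27.8 scaled counts in inhibitor control cells and at 19.5 to 31.8 in mimic control cells. Endothelial markers summed to 64.9 to 114 scaled counts in inhibitor control cells and to 57.0 to 104 in mimic control cells, and none of the 5 that were tested passed. Blood markers summed to 2930 to 3040 scaled counts in inhibitor control cells and to 4680 to 5070 in mimic control cells, nearly all of it CD68, a lysosomal protein that shares sequence with another gene, while 6 of the 12 blood markers stayed under 5 in every control library.

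Of all genes tested, 1886 were higher in inhibitor control cells than in mimic control cells and 2027 were lower (limma, Benjamini-Hochberg adjusted p under 0.05). These calls were 11.5% and 12.3% of the genes tested. Among the well-expressed single-copy genes, 1349 were higher, 1666 were lower and 7282 did not pass. The changes were mostly small, with a median log2 change of 0.45 among the genes called higher and of -0.46 among those called lower, and 75 genes were called with at least 2-fold higher and 42 with at least 2-fold lower levels. The values of the groups did not overlap for 47.9% of these genes, in either direction, and for 41.2% of all genes tested. In a fit of all 12 libraries, which share 1 estimate of the spread, 572 of the well-expressed single-copy genes were called higher and 740 lower. The same fit without mimic library 3 called 1284 higher and 1599 lower. In the fit of the control libraries alone, without inhibitor control library 1, the counts were 827 and 1037. The genes nearest to the level limit of the rule were DNAJC27 (mean 20.02, log2 change -0.74) inside and SYN3 (mean 19.96, -0.50) outside, and POLR1C (0.23) lay just outside the limit of 20% of shared words.

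**Figure D1:**
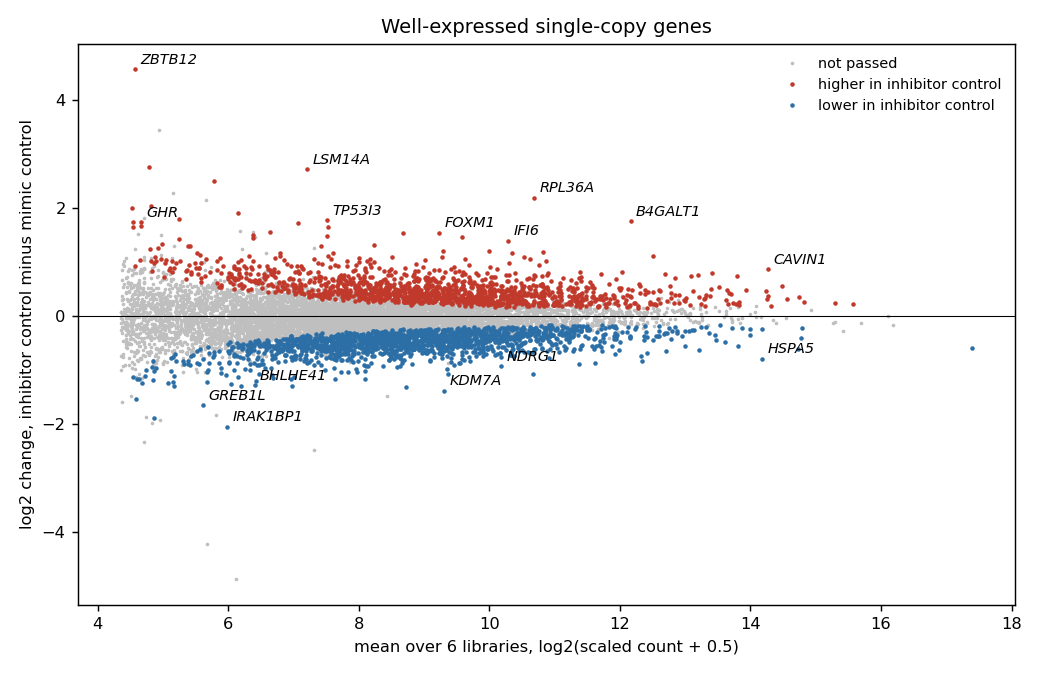
The log2 change (inhibitor control minus mimic control) of 10297 well-expressed single-copy genes against their mean level over the 6 libraries, with the 1349 genes called higher in red, the 1666 called lower in blue and the rest in gray. Calls spread over the whole range of levels, and B4GALT1 stood far above genes of its level.

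The 15 largest rises among the well-expressed single-copy genes had log2 changes of 1.67 to 4.57. B4GALT1, a Golgi enzyme that adds galactose to glycoproteins, had 7080, 7086 and 7117 scaled counts in inhibitor control cells, against 2097, 2172 and 1995 in mimic control cells. The groups were far apart, with a log2 change of 1.77 ± 0.049 (SE) and an adjusted p of 2.18e-06. TP53I3, a p53-induced oxidoreductase, had 301, 283 and 259 scaled counts in inhibitor control cells, against 78.4, 73.2 and 94.9 in mimic control cells (log2 change 1.77 ± 0.13, adjusted p = 0.000256). IFI27, an interferon-stimulated mitochondrial protein, had 189, 179 and 246 scaled counts in inhibitor control cells, against 77.7, 51.1 and 57.6 in mimic control cells (1.72 ± 0.19, adjusted p = 0.00104). In each of these genes every inhibitor control library lay above every mimic control library by more than the spread within either group. LSM14A, an RNA-binding protein of cytoplasmic processing bodies, had 323, 270 and 174 scaled counts in inhibitor control cells, against 51.2, 29.3 and 34.1 in mimic control cells (2.72 ± 0.27). RPL36A, a ribosomal protein with 11.6% of its words shared, had 2823, 2870 and 2413 scaled counts in inhibitor control cells, against 667, 688 and 446 in mimic control cells (2.19 ± 0.16).

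Other large rises were of genes at low levels. GHR, the growth hormone receptor, had 50.4, 30.1 and 35.1 scaled counts in inhibitor control cells, against 11.2, 15.5 and 7.41 in mimic control cells (log2 change 1.74 ± 0.35), and LMX1B, a homeobox factor of limb and kidney, had 43.3, 36.7 and 34.7 against 10.8, 10.3 and 14.1 (1.67 ± 0.27). NEURL1B, a ubiquitin ligase of the Notch pathway, DNAH17, a dynein heavy chain of cilia, C10orf143 and TAMALIN, a scaffold protein, had log2 changes of 2.05, 2.00, 1.91 and 1.80 at adjusted p of 0.00377 to 0.0107. ZBTB12 and ZBTB22, zinc finger factors of the major histocompatibility region on chromosome 6, had log2 changes of 4.57 ± 1.26 and 2.51 ± 0.54, and ZBTB12 was listed at 0 in mimic control 1 and mimic control 3 and at 16.7 in mimic control 2. The remaining members of these 15 were BMP8B, a bone morphogenetic protein (2.76 ± 0.83), and TMSB15A, an actin-binding thymosin (1.75 ± 0.51). BMP8B and ZBTB12 share 18.9% and 17.8% of their words with other genes, close to the limit of the rule. Calls of 4 of the 15 were lost when a control library was left out: ZBTB12 in 5 of the 6 fits (adjusted p 0.064 to 0.104, all but that without mimic control 2), TMSB15A in 5 (0.0513 to 0.117, all but that without mimic control 3), BMP8B in 4 (0.0695 to 0.109, without any inhibitor control library or mimic control 2) and ZBTB22 without inhibitor control 2 (0.0502). The fit of all 12 libraries did not call ZBTB12, BMP8B, LSM14A or ZBTB22 (adjusted p 0.0858, 0.0643, 0.128 and 0.0935), and a correction for GC content described below ended the calls of ZBTB12 and BMP8B (0.0577 and 0.0726).

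The 15 largest falls had log2 changes of -2.05 to -1.22. KDM7A, a histone demethylase, had 289, 366 and 397 scaled counts in inhibitor control cells, against 1133, 752 and 870 in mimic control cells (log2 change -1.38 ± 0.16, adjusted p = 0.00123). SETDB2, a histone methyltransferase, had 239, 218 and 266 scaled counts in inhibitor control cells, against 606, 488 and 723 in mimic control cells (-1.31 ± 0.14, adjusted p = 0.000964). GREB1L, a gene needed for kidney development, had 19.01, 21.7 and 29.3 scaled counts in inhibitor control cells, against 88.5, 63.9 and 68.4 in mimic control cells (-1.65 ± 0.23). These 3 genes did not overlap between the groups. Their SD in scaled counts was larger in mimic control libraries, which also had the higher means. BHLHE41, a repressor of the circadian clock, had 61.0, 34.5 and 54.1 scaled counts in inhibitor control cells, against 110, 130 and 116 in mimic control cells (-1.28 ± 0.22, adjusted p = 0.00507). IRAK1BP1, named for binding an interleukin receptor kinase, and C12orf50 fell furthest, by 2.05 and 1.89 on the log2 scale.

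The other members of the 15 largest falls lay between 6.92 and 225.3 scaled counts in the control libraries. They were SLC35F1, a solute carrier family member (log2 change -1.54), LONRF1 (-1.29), ZNF583, a zinc finger factor (-1.29), STXBP4, a syntaxin-binding protein (-1.28), PTPRT, a receptor tyrosine phosphatase (-1.26), C3orf49 (-1.23), TNFSF15, a cytokine of the tumor necrosis factor family (-1.23), ENTHD1 (-1.22) and FAM9C (-1.22). Leaving out 1 control library ended 7 of these calls: LONRF1 (adjusted p 0.0532 to 0.0601, without inhibitor control 1, mimic control 2 or mimic control 3), ZNF583 (0.0554 to 0.106, without any mimic control library), TNFSF15 (0.0558 to 0.0621, without inhibitor control 1, inhibitor control 2 or mimic control 3), FAM9C (0.0511 to 0.0627, without inhibitor control 2, mimic control 1 or mimic control 2), SLC35F1 (0.056 and 0.0579, without mimic control 2 or 3), PTPRT (0.0707 and 0.0511, without inhibitor control 1 or 3) and C3orf49 (0.0515 and 0.0634, without inhibitor control 1 or mimic control 3). The fit of all 12 libraries did not call SLC35F1, PTPRT or FAM9C (adjusted p 0.137, 0.47 and 0.0529), and the correction for GC content ended those of ZNF583 and FAM9C (0.0948 and 0.0763).

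**Figure D2:**
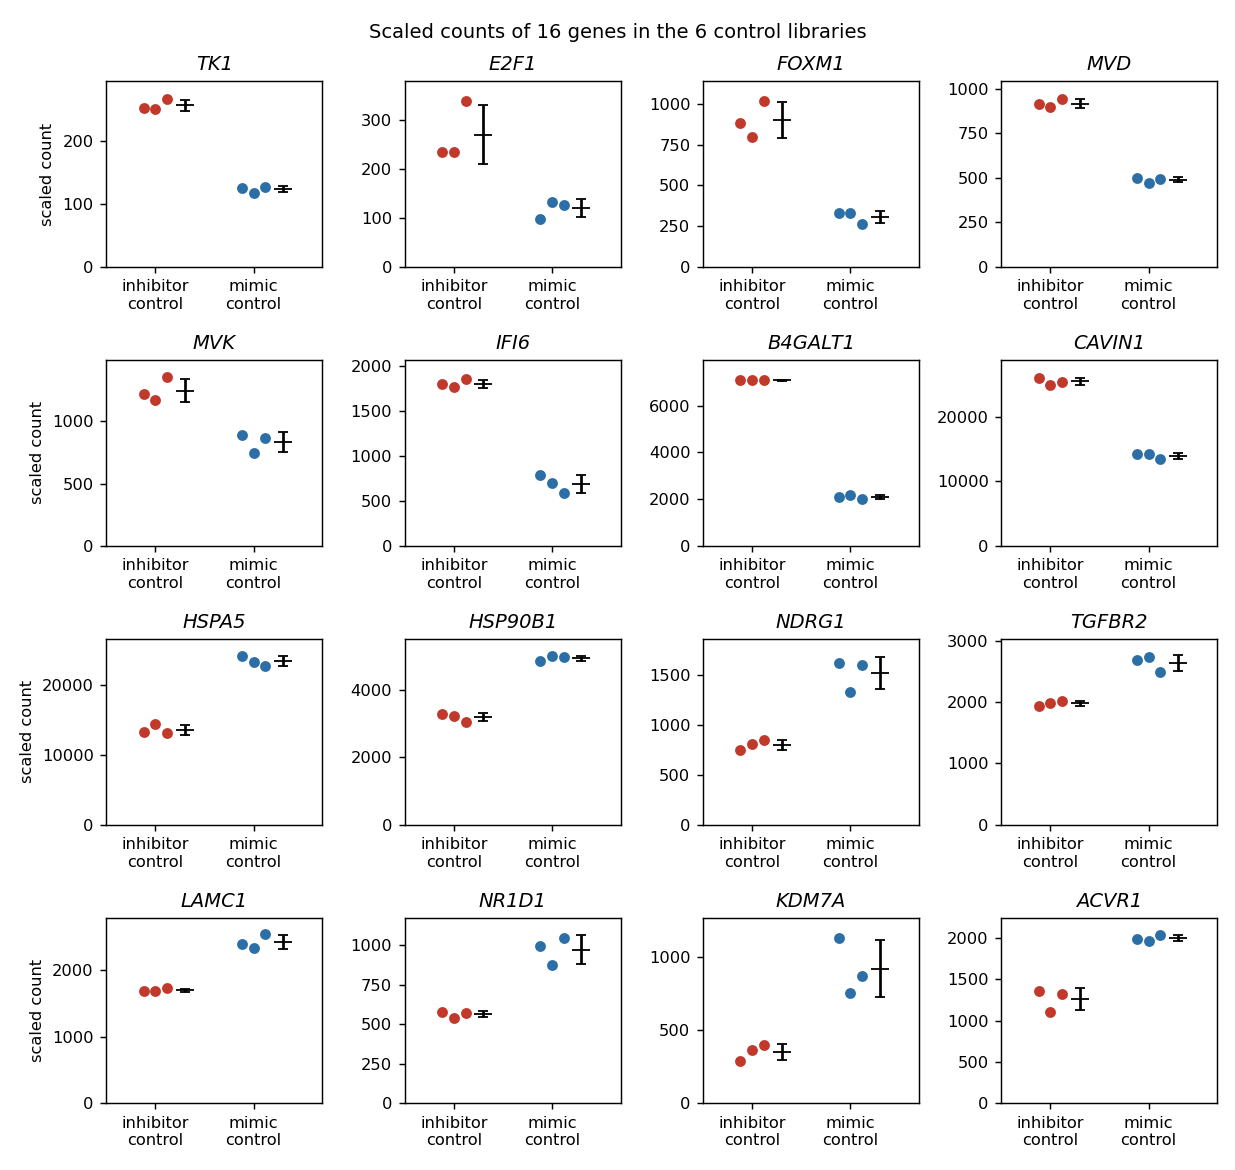
Scaled counts of 16 genes in each of the 3 inhibitor control libraries (red) and the 3 mimic control libraries (blue), with the mean and SD in black and each axis starting at 0. The groups do not overlap in any of the 16, which were picked for the plot after their values were seen.

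The 2 active groups of the series show which control lay apart for a few of these genes, given as levels only. B4GALT1 averaged 7094 scaled counts in inhibitor control cells and 2088 in mimic control cells, while the inhibitor group lay at 6020 to 6342 and the mimic group at 6997 to 8090, so the mimic control was the only low group. FOXM1, a transcription factor of mitotic genes, followed the same order, with 899 scaled counts in inhibitor control cells and 307 in mimic control cells, against 796 to 918 in the inhibitor group and 840 to 980 in the mimic group. For GHR the inhibitor control was the high group, at a mean of 38.6 scaled counts with mimic control cells at 11.4, since the inhibitor group lay at 2.30 to 8.65 and the mimic group at 3.39 to 4.47. HSPA5, the main chaperone of the endoplasmic reticulum (ER), split the series by kind of oligonucleotide, with means of 13580 scaled counts in inhibitor control cells and 23370 in mimic control cells, 11470 to 12490 in the inhibitor group and 23720 to 29830 in the mimic group. NDRG1, a hypoxia and stress gene, had means of 801 scaled counts in inhibitor control cells and 1522 in mimic control cells, with 666 to 717 in the inhibitor group and 1385 to 1894 in the mimic group. IFI6, an interferon-stimulated gene, varied more within the mimic group: inhibitor control cells averaged 1808 scaled counts and mimic control cells 691, the inhibitor group lay at 1641 to 1853 and the mimic group at 466 to 1193.

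The change of a gene went with the GC content of its transcripts. The genes were cut into 10 bins of like size by GC content. In the bin of lowest GC content (30.2% to 38.5%) the median log2 change was -0.31, with 1.45% of genes called higher and 34.7% called lower in inhibitor control cells. In the bin of highest GC content (61.9% to 74.1%) it was 0.31, with 39.1% called higher and 1.65% called lower. Across the 10297 genes, which are not independent replicates, Pearson's r between GC content and log2 change was 0.50. The change also went with length, at a median of 0.16 in the shortest of 10 bins of transcript length and of -0.20 in the longest. Within the genes of 45% to 50% GC, cut into 5 bins of length, the bin of the shortest transcripts had a median of -0.02 and that of the longest -0.14. A per-library correction for GC content, a smooth curve taken from each library's deviations, left 885 genes called higher and 900 called lower. Of these, 631 and 662 were also called without it. The correction left a trend with transcript length. The shortest bin kept a median of 0.09, with 19.4% called higher and 5.33% lower, and the longest had -0.08, with 5.83% and 11.7%. The control given and any difference in how the 2 sets of libraries were made cannot be told apart in these data, and the part of GC content in each result below was not tested beyond giving the corrected values.

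**Figure D3:**
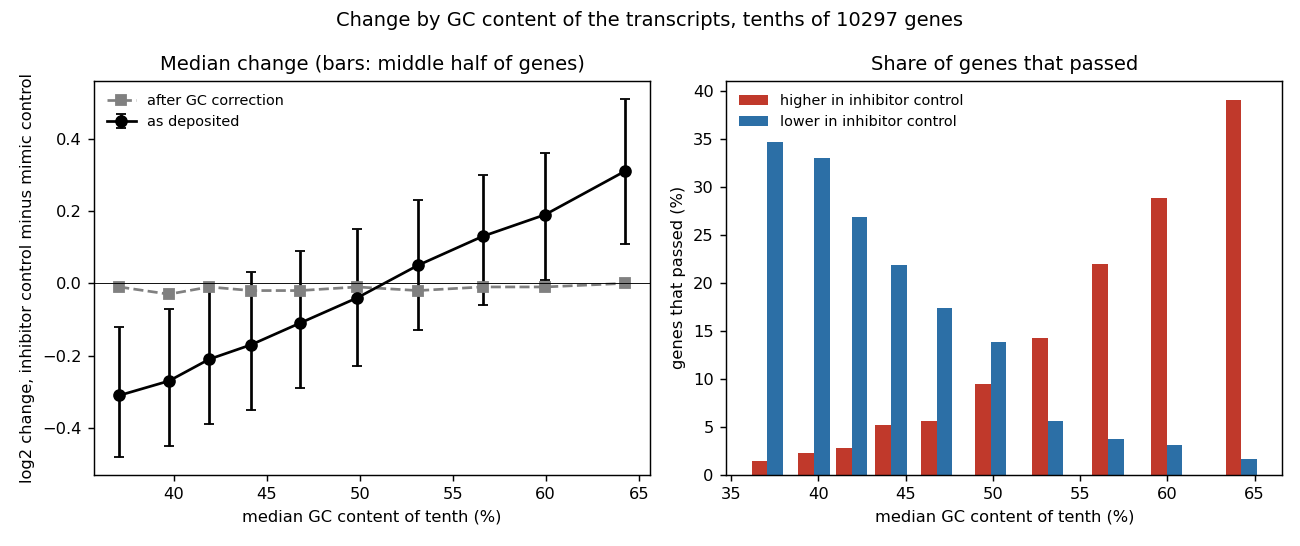
Left, the median log2 change (inhibitor control minus mimic control) in 10 bins of the genes by GC content, with bars for the interquartile range, as deposited and after the GC correction. Right, the share of each bin called higher or lower, which ran from 1.45% higher and 34.7% lower at the lowest GC content to 39.1% higher and 1.65% lower at the highest.

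Each library has its own GC contrast, the median log2 deviation of the highest GC bin minus that of the lowest, taken from the gene means over all 12 libraries. It was 0.35, 0.39 and 0.24 in inhibitor control libraries and -0.18, -0.27 and -0.41 in mimic control libraries. These groups did not overlap (exact permutation test, two-sided, p = 0.1, the smallest p that 3 against 3 allows). The inhibitor libraries had 0.40, 0.33 and 0.19, and the mimic libraries -0.80, -0.48 and 0.25, so mimic library 3 lay with the inhibitor side. Mitochondrially encoded genes took 7.12%, 8.08% and 6.45% of the signal in inhibitor control libraries and 8.21%, 9.93% and 9.68% in mimic control libraries (exact permutation test, two-sided, p = 0.1, again the smallest possible).

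**Figure D4:**
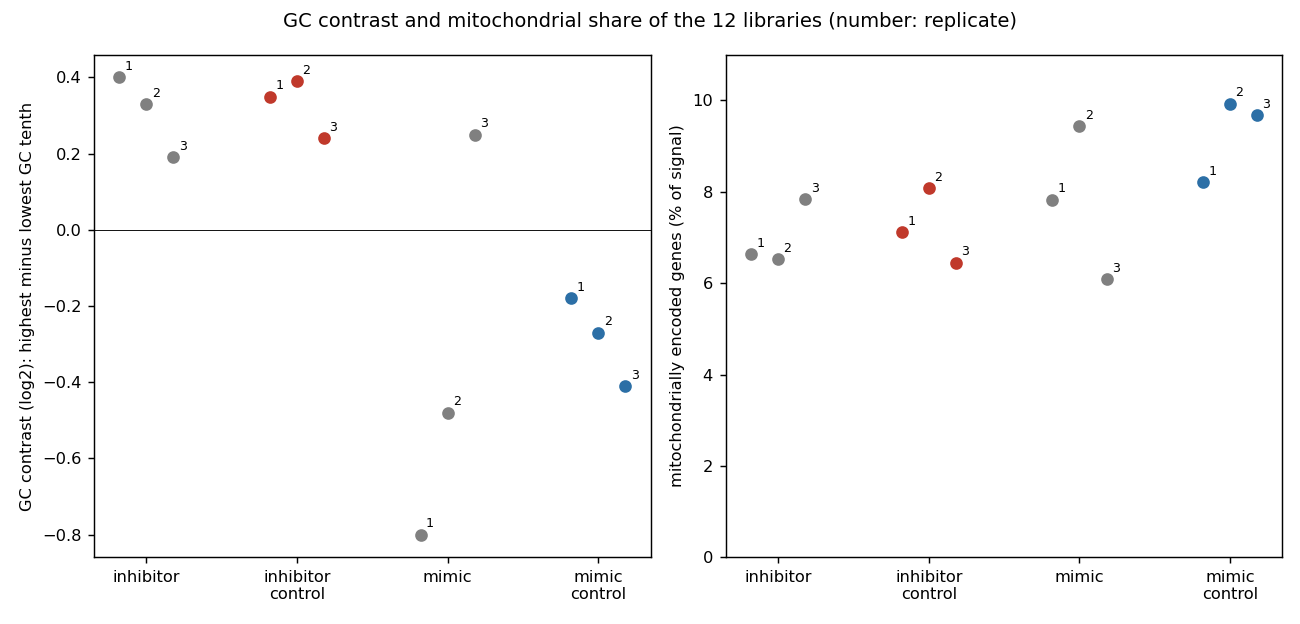
Left, the GC contrast of each of the 12 libraries (log2 units) and, right, the share of signal from mitochondrially encoded genes, by group with the replicate number beside each point. Inhibitor control libraries lay above 0 and mimic control libraries below 0 in GC contrast, and mimic library 3 lay apart from mimic libraries 1 and 2.

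Many genes of DNA replication passed as higher in inhibitor control cells. For this list and those below, the shares to set beside the counts are those of all genes tested, 11.5% called higher and 12.3% called lower. Of the 36 tested genes of the G1/S transition and DNA replication, the step at which a cell commits to copying its genome, 17 were higher, 1 was lower and 18 did not pass, with a median log2 change of 0.49, against -0.02 over all genes tested. TK1, thymidine kinase, had 253, 252 and 267 scaled counts in inhibitor control cells, against 125, 118 and 128 in mimic control cells (log2 change 1.05 ± 0.10, adjusted p = 0.000574). E2F1, the transcription factor that drives this program, had 235, 234 and 339 scaled counts in inhibitor control cells, against 98.4, 133 and 126 in mimic control cells (1.16 ± 0.18, adjusted p = 0.00309). FEN1, the flap endonuclease that matures Okazaki fragments, had 191, 156 and 176 against 91.6, 86.5 and 95.1 (0.93 ± 0.12), and MCM3, a subunit of the replicative helicase, had 847, 834 and 906 against 613, 480 and 543 (0.67 ± 0.094). In all 4 genes the lowest inhibitor control library lay above the highest mimic control library. RRM2, a ribonucleotide reductase subunit, and UHRF1, which keeps DNA methylation at replication, also rose, by 1.39 and 1.15 on the log2 scale, but they share 23.0% and 27.3% of their words with other genes and were chosen after their values were seen. After the GC correction 15 genes of this list stayed higher and 0 were lower, with a median of 0.54.

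Of 34 genes of G2 and mitosis, 6 were higher, 0 were lower and 28 did not pass, with a median of 0.19 (after the GC correction 8, 0 and 0.27), and without inhibitor control library 1 only 2 were called higher. The median was 0.31 without inhibitor control 2, 0.10 without inhibitor control 3 and 0.12 without mimic control 2. FOXM1 had 882, 797 and 1018 scaled counts in inhibitor control cells, against 328, 330 and 264 in mimic control cells (log2 change 1.55 ± 0.12, adjusted p = 0.000296), with no overlap. BIRC5, the mitotic protein survivin, had 154, 144 and 164 scaled counts in inhibitor control cells, against 93.2, 107 and 103 in mimic control cells (0.60 ± 0.12, adjusted p = 0.00861). ESPL1, the protease separase, and CCNB2, cyclin B2, had smaller changes (0.68 and 0.34) whose calls were each lost in 5 of the 6 fits without a control library (adjusted p 0.0503 to 0.0657 without any but inhibitor control 2 for ESPL1, and 0.0659 to 0.114 without any but mimic control 1 for CCNB2), and ESPL1 also missed after the GC correction (0.0805). Among 17 histone genes 4 were higher and 0 lower, with a median of 0.22 (7, 0 and 0.33 after the GC correction). H2AX, the histone that marks DNA breaks, had 838, 827 and 968 scaled counts in inhibitor control cells, against 473, 531 and 440 in mimic control cells (0.87 ± 0.094). H1-10 and H2AZ1, a linker histone and a replacement histone, had log2 changes of 0.81 and 0.39.

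The promoters of the replication genes were searched on both strands for TTTGGCGC and TTTCCCGC, forms of the site bound by E2F factors, chosen after the values were seen. Of 31 such genes with a RefSeq promoter of 250 bases before to 50 after the start, 16 (51.6%) held at least 1 of them, against 2.31% of 27305 promoters, and 9 of the 16 were called higher. The promoters of E2F1 (chr20:33686336-33686635, minus strand) and MCM3 (chr6:52284693-52284992, minus strand) of GRCh38.p14 are shown with those letters in capitals because both genes are described above. A match is a description of the sequence and says nothing of binding. The G2 and mitosis promoters held TTTGAA, the core of the cell cycle homology region, in 19 of 28 (67.9%, against 15.4% of all promoters) and CCAAT in 21 of 28 (75%, against 35.7%), and 3 of the genes with TTTGAA and 3 of those with CCAAT were called higher.
E2F1: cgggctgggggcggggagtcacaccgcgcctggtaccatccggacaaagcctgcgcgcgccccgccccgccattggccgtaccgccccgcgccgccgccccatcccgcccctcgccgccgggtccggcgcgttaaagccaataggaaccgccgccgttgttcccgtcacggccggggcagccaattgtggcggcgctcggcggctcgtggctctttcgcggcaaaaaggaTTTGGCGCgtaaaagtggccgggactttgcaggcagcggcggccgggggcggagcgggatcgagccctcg
MCM3: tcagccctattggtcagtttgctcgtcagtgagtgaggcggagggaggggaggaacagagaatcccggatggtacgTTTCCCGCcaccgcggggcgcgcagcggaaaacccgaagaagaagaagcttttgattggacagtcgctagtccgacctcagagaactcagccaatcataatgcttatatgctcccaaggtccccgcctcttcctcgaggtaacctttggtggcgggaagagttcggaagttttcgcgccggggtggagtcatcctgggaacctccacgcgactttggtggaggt

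Cells make cholesterol from acetyl-CoA through mevalonate and take it up from lipoproteins, and both routes are switched on together when sterols are low. Of 25 genes of this list 10 were higher in inhibitor control cells, 0 were lower and 15 did not pass, with a median of 0.27 (12 higher, 0 lower and 0.34 after the GC correction). The median was 0.13 without inhibitor control 3 and 0.17 without mimic control 2. MVD, the mevalonate diphosphate decarboxylase, had 914, 897 and 944 scaled counts in inhibitor control cells, against 500, 473 and 495 in mimic control cells (log2 change 0.91 ± 0.063, adjusted p = 0.000238). MVK, the mevalonate kinase upstream of it, had 1217, 1173 and 1353 scaled counts in inhibitor control cells, against 888, 745 and 867 in mimic control cells (0.58 ± 0.087, adjusted p = 0.00284). LSS, which closes the ring of lanosterol, had 4693, 4485 and 5525 scaled counts in inhibitor control cells, against 3402, 3143 and 3727 in mimic control cells (0.51 ± 0.09). No library of these 3 genes overlapped with the other group, but MVD and LSS missed the threshold in the fit of all 12 libraries (adjusted p 0.0579 and 0.0638). TCACNCCAC, a form of the sterol response element, was in the promoter of 1 of 19 genes with a sequence, SREBF2, which was not called. Among 13 genes of fatty acid synthesis 1 was higher and 1 lower, namely ELOVL6, an elongase (1.12 ± 0.20), and ACSL3, an acyl-CoA ligase (-0.34 ± 0.10), whose call was lost without inhibitor control 1, inhibitor control 2, mimic control 2 or mimic control 3 (adjusted p 0.0841 to 0.129) and after the GC correction (0.642).

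The ER folds secreted and membrane proteins, and unfolded protein there raises its chaperones through ATF6 and XBP1. Of 23 tested genes of ER folding and disposal 9 were lower in inhibitor control cells, 3 were higher and 11 did not pass, with a median of -0.19 (7 lower, 2 higher and -0.09 after the GC correction). HSPA5 had 13260, 14360 and 13100 scaled counts in inhibitor control cells, against 24080, 23340 and 22680 in mimic control cells (log2 change -0.78 ± 0.051, adjusted p = 0.000185). HSP90B1, the ER form of HSP90, had 3274, 3237 and 3052 scaled counts in inhibitor control cells, against 4861, 4997 and 4974 in mimic control cells (-0.63 ± 0.049, adjusted p = 0.000296). CALR, the lectin chaperone calreticulin, had 11040, 10580 and 9624 scaled counts in inhibitor control cells, against 14360, 14880 and 14210 in mimic control cells (-0.48 ± 0.058, adjusted p = 0.00131). In these abundant genes the replicates lay within narrow ranges and the groups were well apart, though HSPA5 and HSP90B1, at 18.8% and 18.7% of shared words, were close to the limit of the rule. HYOU1, a chaperone of the same compartment, went the other way, with 354, 359 and 348 scaled counts in inhibitor control cells, against 201, 179 and 206 in mimic control cells (0.86 ± 0.09), but a second identifier holds identical values. PDIA6, a disulfide isomerase that shares 23.7% of its words and was chosen after its values were seen, had 9628, 9374 and 9210 scaled counts in inhibitor control cells, against 4498, 4301 and 4298 in mimic control cells (1.11 ± 0.045).

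The ER stress element, CCAAT followed by 9 bases and CCACG, was in 6 of 21 promoters of the ER list (28.6%) and in 22 of all 27305 (0.0806%). The 6 were CALR, CANX, CRELD2, HSP90B1, HSPA5 and XBP1, of which 5 were called lower and CRELD2 was not called, though XBP1 missed after the GC correction (adjusted p = 0.097). The element includes a CCAAT box. The promoters of HSPA5 (chr9:125241294-125241593, minus strand), HSP90B1 (chr12:103930160-103930459, plus strand), CALR (chr19:12938359-12938658, plus strand) and CANX (chr5:179698679-179698978, plus strand) of GRCh38.p14 are shown with the whole element, gap included, in capitals because these genes were called lower in both the main fit and after the GC correction. CANX, the membrane chaperone calnexin, was chosen for this and had 403, 419 and 382 scaled counts in inhibitor control cells, against 557, 626 and 593 in mimic control cells (log2 change -0.56 ± 0.077, adjusted p = 0.00216). HSP90B1 held the element at 2 places and the other 3 promoters at 1.
HSPA5: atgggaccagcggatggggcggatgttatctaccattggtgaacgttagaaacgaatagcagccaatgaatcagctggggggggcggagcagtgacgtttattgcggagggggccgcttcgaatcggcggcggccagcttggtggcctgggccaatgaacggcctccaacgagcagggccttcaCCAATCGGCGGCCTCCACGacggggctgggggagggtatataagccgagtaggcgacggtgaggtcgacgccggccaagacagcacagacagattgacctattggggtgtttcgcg
HSP90B1: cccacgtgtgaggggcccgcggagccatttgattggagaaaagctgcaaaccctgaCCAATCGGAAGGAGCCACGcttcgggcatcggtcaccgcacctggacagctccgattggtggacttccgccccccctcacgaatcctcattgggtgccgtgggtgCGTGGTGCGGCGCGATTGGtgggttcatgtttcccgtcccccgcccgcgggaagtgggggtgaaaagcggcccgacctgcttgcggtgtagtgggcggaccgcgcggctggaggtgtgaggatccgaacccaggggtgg
CALR: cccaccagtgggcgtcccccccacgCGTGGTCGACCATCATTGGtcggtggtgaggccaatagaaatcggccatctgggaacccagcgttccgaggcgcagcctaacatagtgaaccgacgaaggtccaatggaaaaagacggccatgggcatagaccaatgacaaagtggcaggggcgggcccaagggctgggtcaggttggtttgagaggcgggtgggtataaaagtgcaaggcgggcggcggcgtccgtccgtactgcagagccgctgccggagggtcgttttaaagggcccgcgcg
CANX: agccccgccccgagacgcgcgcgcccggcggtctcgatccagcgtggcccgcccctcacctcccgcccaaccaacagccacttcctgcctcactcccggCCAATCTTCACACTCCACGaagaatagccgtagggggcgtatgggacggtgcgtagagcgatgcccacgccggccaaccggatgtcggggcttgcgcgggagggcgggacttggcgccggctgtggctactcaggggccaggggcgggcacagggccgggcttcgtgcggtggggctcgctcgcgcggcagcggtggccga

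ATF4 is the factor that raises amino acid transporters, amino acid synthesis and tRNA charging under stress. Of 26 tested genes of this list 11 were lower in inhibitor control cells, 1 was higher and 14 did not pass, with a median of -0.18 (10 lower, 0 higher and -0.21 after the GC correction), and without inhibitor control library 1 only 6 were called lower. VLDLR, a lipoprotein receptor that ATF4 can raise, had 122, 129 and 107 scaled counts in inhibitor control cells, against 199, 193 and 171 in mimic control cells (log2 change -0.65 ± 0.12, adjusted p = 0.00689). SLC7A11, the cystine transporter, had 958, 911 and 1059 scaled counts in inhibitor control cells, against 1227, 1288 and 1470 in mimic control cells (-0.44 ± 0.086, adjusted p = 0.00812). NARS1, an asparaginyl-tRNA synthetase, was at -0.30 and CEBPB, a bZIP factor, was the one higher gene at 0.42. After the GC correction SLC7A11, NARS1 and CEBPB missed the threshold (adjusted p 0.231, 0.137 and 0.59), and NARS1 also did without inhibitor control 1, inhibitor control 2 or mimic control 3 (0.053 to 0.0629). ATF4 itself and its partner DDIT3, both outside the single-copy genes and chosen after their values were seen, had log2 changes of -0.44 ± 0.085 and -0.68 ± 0.11.

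Of 28 tested genes of hypoxia and glycolysis 10 were lower in inhibitor control cells, 2 were higher and 16 did not pass, with a median of -0.16 (8 lower, 1 higher and -0.18 after the GC correction). NDRG1 had 750, 807 and 846 scaled counts in inhibitor control cells, against 1622, 1336 and 1608 in mimic control cells (log2 change -0.92 ± 0.088, adjusted p = 0.000721). ADM, the vasodilator peptide adrenomedullin, had 491, 518 and 514 scaled counts in inhibitor control cells, against 706, 648 and 707 in mimic control cells (-0.43 ± 0.069), and KDM3A, an oxygen-dependent histone demethylase, had 229, 211 and 214 against 313, 299 and 303 (-0.48 ± 0.084). ENO1, a glycolytic enzyme, went the other way, with 15450, 14770 and 15680 scaled counts in inhibitor control cells, against 11510, 11310 and 11570 in mimic control cells (0.42 ± 0.044). These 4 genes kept their calls without any 1 control library. Without inhibitor control library 2 the list held 6 lower genes in place of 10.

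The p53 targets did not move as 1 group. Of 23 tested, 7 were lower and 3 were higher, with a median of -0.07 (5, 2 and -0.06 after the GC correction). TP53I3 was the gene of this list furthest from 0, at a log2 change of 1.77, and BAX, the pore-forming death protein, had 1605, 1499 and 1344 scaled counts in inhibitor control cells, against 1105, 1005 and 1057 in mimic control cells (0.49 ± 0.077). MDM2, the ubiquitin ligase that holds p53 down, had 325, 349 and 374 scaled counts in inhibitor control cells, against 492, 530 and 550 in mimic control cells (-0.59 ± 0.084), and CCNG1, cyclin G1, had 584, 593 and 558 against 866, 774 and 919 (-0.56 ± 0.079). MDM2 and BAX missed the threshold in the fit of all 12 libraries (adjusted p 0.0615 and 0.0987).

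Interferon-stimulated genes were called in both directions, but after the GC correction only as higher. Cells that sense foreign RNA make type I interferon, which raises a shared set of genes. Of 36 tested genes of this set 5 were higher, 2 were lower and 29 did not pass, with a median of 0.08 (5, 0 and 0.12 after the GC correction), a share of higher genes close to the 11.5% of all genes tested. IFI6 had 1804, 1765 and 1855 scaled counts in inhibitor control cells, against 788, 701 and 584 in mimic control cells (log2 change 1.40 ± 0.10, adjusted p = 0.000256). ISG15, a ubiquitin-like protein, had 542, 527 and 734 scaled counts in inhibitor control cells, against 372, 318 and 311 in mimic control cells (0.84 ± 0.14, adjusted p = 0.00405), and OAS3, a sensor of double-stranded RNA, had 178, 158 and 183 against 97.2, 94.2 and 105 (0.80 ± 0.12). Those 3 and IFI27 had no overlap between groups and kept their calls without any 1 control library. They were named for the smallest p and were all higher, while log2 changes in the set ran from -0.90 to 2.32.

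Of 22 tested genes that sense nucleic acids, 3 were lower and 1 was higher, beside 12.3% and 11.5% of all genes tested. The median was -0.02, and after the GC correction 1 was lower and 0 higher. IFI16, a DNA sensor, had 1143, 1314 and 1161 scaled counts in inhibitor control cells, against 1717, 1785 and 1603 in mimic control cells (log2 change -0.50 ± 0.073), and TBK1, the kinase below several sensors, was at -0.41 ± 0.069. TLR7, an endosomal receptor for single-stranded RNA, was low, with 14.3, 21.01 and 10.4 scaled counts in inhibitor control cells, against 33.5, 38.0 and 29.2 in mimic control cells (-1.17 ± 0.31), and STING1, an adaptor for DNA sensing with an identical second identifier, was at 0.37 ± 0.11. After the GC correction IFI16, TBK1, TLR7 and STING1 all missed the threshold (adjusted p 0.0716, 0.245, 0.0911 and 0.197). TLR7 also did without any control library but inhibitor control 2 (0.0577 to 0.0894), and STING1 without inhibitor control 1, inhibitor control 2, mimic control 2 or mimic control 3 (0.107 to 0.148).

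Among 21 NF-kB, cytokine and chemokine genes 3 were higher and 1 lower, with a median of 0.15 that was 0.07 without mimic control 3 (2 higher, 1 lower and 0.04 after the GC correction). TNFAIP2, an NF-kB target, had 3740, 3985 and 3640 scaled counts in inhibitor control cells, against 3154, 3088 and 2996 in mimic control cells (log2 change 0.30 ± 0.053). CSF1, the macrophage growth factor, and NFKBIA, the inhibitor of NF-kB, were each at 0.18 ± 0.054, and both calls were lost when a library was left out (adjusted p 0.0628 to 0.135 for CSF1 without any but mimic control 2, and 0.068 to 0.142 for NFKBIA without any of the 6). The single-copy calls of this list, TNFAIP2, CSF1 and NFKBIA, ended after the GC correction (0.558, 0.889 and 0.154), and the lower gene was REL, an NF-kB subunit with 45.9% of its words shared (-0.73 ± 0.083). Among 21 immediate early genes, which answer growth signals and stress within the hour, 6 were higher and 2 lower, with a median of 0.38 that the GC correction took to 0.15. JUN, a subunit of AP-1, had 3826, 3715 and 3514 scaled counts in inhibitor control cells, against 2598, 2666 and 2415 in mimic control cells (0.53 ± 0.058, adjusted p = 0.00104). FOSL2 and ZFP36, an AP-1 partner and a protein that destabilizes messenger RNA, were at 0.43 and 0.44, while FOSL1, another AP-1 partner, was at -0.40 and lost its call without inhibitor control 1 or 2 (0.0556 and 0.0502).

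The circadian clock is a feedback loop in which NR1D1 and NR1D2 repress BMAL1 and the BHLHE and PER proteins repress its targets. Of 20 tested clock genes 5 were lower in inhibitor control cells, 1 was higher and 14 did not pass, with a median of -0.23, and after the GC correction 7 were lower and 0 higher at the same median. Without mimic control 3 the median was -0.14. NR1D1 had 576, 541 and 573 scaled counts in inhibitor control cells, against 997, 874 and 1048 in mimic control cells (log2 change -0.79 ± 0.081, adjusted p = 0.000852). NR1D2 had 551, 537 and 610 scaled counts in inhibitor control cells, against 946, 936 and 1106 in mimic control cells (-0.81 ± 0.087, adjusted p = 0.000942). NFIL3, a repressor within the loop, had 240, 266 and 284 against 387, 366 and 439 (-0.59 ± 0.10), and BHLHE41 is described above. The groups did not overlap in these 4 genes, and their calls held without any 1 control library, after the GC correction and in the fit of all 12 libraries.

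Of 21 tested genes of the machinery that makes and uses microRNAs, Argonaute and processing enzymes included, 2 were higher and 3 lower. These counts stand beside 11.5% and 12.3% of all genes tested. The median was -0.14, and after the GC correction 0 were higher and 1 lower at a median of -0.03. DIS3L2, an exonuclease of uridylated RNA, had 220, 154 and 197 scaled counts in inhibitor control cells, against 293, 310 and 277 in mimic control cells (log2 change -0.64 ± 0.13, adjusted p = 0.0115). TUT7, which adds the uridines, was at -0.50 ± 0.092, TARBP2, the partner of DICER1, at 0.53 ± 0.12 and DGCR8, the partner of DROSHA, at 0.41 ± 0.11. The calls of TUT7, TARBP2 and DGCR8 ended after the GC correction (adjusted p 0.101, 0.0898 and 0.0988). TARBP2 also missed without inhibitor control 2 (0.0502) and DGCR8 without inhibitor control 1, inhibitor control 2, mimic control 1 or mimic control 3 (0.0704 to 0.107).

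**Figure D5:**
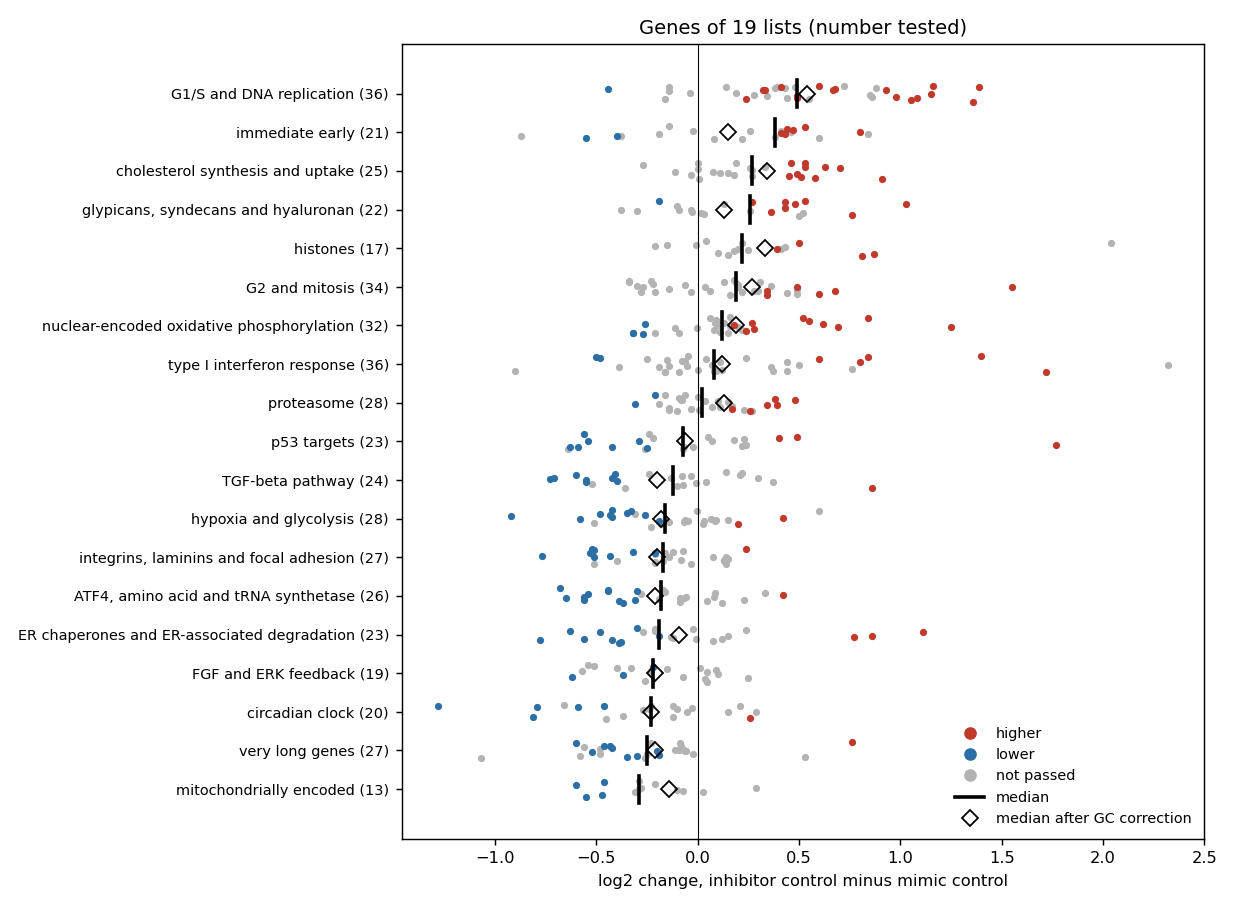
The log2 change of every tested gene of 19 of the 44 lists, with genes called higher in red, genes called lower in blue and the rest in gray, a bar at the median and a diamond at the median after the GC correction. The plotted lists were chosen after their values were seen, and the G1/S list lies at the top with a median of 0.49 and 0.54 after the correction.

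Ligands of the TGF-beta family act through paired receptor kinases and SMAD factors and shape cartilage and bone. Of 24 TGF-beta pathway genes 8 were lower in inhibitor control cells, 1 was higher and 15 did not pass, with a median of -0.12 (7 lower, 1 higher and -0.20 after the GC correction). The median was -0.21 without inhibitor control 3, -0.19 without mimic control 2 and -0.06 without mimic control 1. TGFBR2, the receptor that binds the ligand first, had 1940, 1993 and 2016 scaled counts in inhibitor control cells, against 2692, 2741 and 2498 in mimic control cells (log2 change -0.41 ± 0.055, adjusted p = 0.00191). SMAD4, the shared SMAD, had 228, 190 and 214 scaled counts in inhibitor control cells, against 297, 315 and 314 in mimic control cells (-0.55 ± 0.10). TGIF1, a corepressor of SMADs, was at -0.71 ± 0.10. In each of these genes the highest inhibitor control library lay below the lowest mimic control library.

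Among 20 BMP pathway genes 4 were lower and 2 higher, with a median of 0.01 (4, 0 and -0.05 after the GC correction). ACVR1, a type I receptor, had 1358, 1107 and 1318 scaled counts in inhibitor control cells, against 1987, 1964 and 2031 in mimic control cells (log2 change -0.67 ± 0.08, adjusted p = 0.00128). BMPR2, a type II receptor, had 1150, 1117 and 1348 scaled counts in inhibitor control cells, against 1938, 1811 and 1924 in mimic control cells (-0.65 ± 0.079, adjusted p = 0.00129). BMP6, a ligand, was at -0.50 ± 0.12, a call lost without inhibitor control 2 or mimic control 3 (adjusted p 0.0563 and 0.0652), and BMP1, a protease that processes collagen rather than a ligand, was at 0.37 ± 0.055, a call that ended after the GC correction (0.195). Both receptors had no overlap between groups and kept their calls after the GC correction.

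Counts for other growth factor pathways stand beside 12.3% called lower and 11.5% called higher of all genes tested. Of 19 genes of fibroblast growth factor signaling and ERK feedback 3 were lower and 0 higher, with a median of -0.22 (4, 0 and -0.21 after the GC correction). PHLDA1, a gene that ERK activity raises, had 5227, 5320 and 5226 scaled counts in inhibitor control cells, against 6924, 7087 and 6390 in mimic control cells (log2 change -0.37 ± 0.052), DUSP4, a phosphatase of ERK, was at -0.62 ± 0.13, and FGFRL1, a receptor without a kinase, at -0.22 ± 0.069 with adjusted p of 0.122 to 0.158 without inhibitor control 1, inhibitor control 2, mimic control 1 or mimic control 3. The 28 Wnt genes split evenly, with 5 higher and 5 lower, and after the GC correction 3 and 4. FZD6 and FZD8, Wnt receptors, were at -0.36 and -0.45, while ROR2, a Wnt co-receptor, and WNT5B, a ligand, were at 0.64 and 0.47, and after the GC correction FZD6 and WNT5B missed the threshold (0.286 and 0.0865). Among 16 genes of the insulin-like growth factor and growth hormone axis 4 were higher and 4 lower, and after the GC correction 2 and 4. IGFBP6, a binding protein, had 1954, 1876 and 1700 scaled counts in inhibitor control cells, against 1280, 1418 and 1199 in mimic control cells (0.51 ± 0.08), and IRS2, an adaptor of the insulin receptor, and IGF2R, a clearance receptor, were at -0.54 and -0.35. IGFBP6 missed the threshold after the GC correction (0.0948).

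Collagens moved in both directions. Among 28 genes of fibrillar and mesenchymal matrix 6 were higher and 2 lower, with a median of 0.02, but after the GC correction 3 were higher and 5 lower. COL1A1, the main chain of bone collagen, had 9121, 8382 and 7553 scaled counts in inhibitor control cells, against 4932, 5282 and 4310 in mimic control cells (log2 change 0.79 ± 0.09, adjusted p = 0.00109). COL4A1, a basement membrane collagen, had 2516, 2449 and 2468 scaled counts in inhibitor control cells, against 3555, 3723 and 4065 in mimic control cells (-0.61 ± 0.059, adjusted p = 0.000763). COL5A1 and COL8A1, collagens of fibrils and of the subendothelial matrix, were at 0.54 and 0.48. These 4 genes did not overlap between groups, and their calls held after the GC correction. Among 14 genes of cartilage matrix and the SOX family 2 were higher and 1 lower: SOX12 (0.58 ± 0.078), COL11A2 (1.26 ± 0.38) and COL11A1 (-0.36 ± 0.10), of which the collagens missed the threshold after the GC correction (adjusted p 0.138 and 0.0785) and without several control libraries (0.0558 to 0.134 for COL11A2 without any but mimic control 2, and 0.0557 to 0.0897 for COL11A1 without inhibitor control 1, inhibitor control 2, mimic control 1 or mimic control 3).

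Matrix proteases were balanced, with 4 of 21 higher and 4 lower, and after the GC correction 3 and 3. MMP1, a collagenase, had 879, 860 and 823 scaled counts in inhibitor control cells, against 610, 629 and 472 in mimic control cells (log2 change 0.59 ± 0.11, adjusted p = 0.00647), with no overlap. MMP15, a membrane protease, was at 0.41, and ADAM10 and ADAM19, sheddases, were at -0.35 and -0.31, and after the GC correction MMP15 and ADAM10 missed the threshold (0.542 and 0.487). Of 27 integrins, laminins and focal adhesion genes 8 were lower, 1 was higher and 18 did not pass, with a median of -0.17 (9 lower, 0 higher and -0.20 after the GC correction). LAMC1, a laminin chain, had 1688, 1682 and 1725 scaled counts in inhibitor control cells, against 2387, 2339 and 2540 in mimic control cells (-0.51 ± 0.053, adjusted p = 0.00089). ITGB1, the common beta chain of integrins, had 6167, 5826 and 5989 scaled counts in inhibitor control cells, against 7863, 8290 and 8008 in mimic control cells (-0.43 ± 0.046), and ITGA2, its collagen-binding partner, had 332, 280 and 272 against 484, 529 and 486 (-0.77 ± 0.10). ITGAV, a partner for fibronectin and vitronectin, was at -0.53 and missed the threshold after the GC correction (0.0619).

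Of 22 genes of glypicans, syndecans and hyaluronan 8 were higher, 1 was lower and 13 did not pass, with a median of 0.26, and after the GC correction 4 were higher and 2 lower at a median of 0.13. Without inhibitor control library 1 the list held 4 higher genes. GPC6, a glypican, had 1683, 1446 and 1610 scaled counts in inhibitor control cells, against 1007, 1001 and 808 in mimic control cells (log2 change 0.76 ± 0.10, adjusted p = 0.00177), while the inhibitor group lay at 418 to 605 and the mimic group at 1525 to 1673. SDC1, a syndecan, and CEMIP, which cuts hyaluronan, were at 0.53 and 0.48, and GPC1 was at 0.43 with its call lost after the GC correction (adjusted p = 0.489). Among 30 axon guidance genes 6 were higher and 5 lower, and after the GC correction 2 and 6. NRP2, a co-receptor for semaphorins, had 1922, 1879 and 2026 scaled counts in inhibitor control cells, against 3080, 3167 and 2905 in mimic control cells (-0.65 ± 0.056, adjusted p = 0.000455), ROBO1, a receptor for Slit proteins, was at -0.84, and SEMA3C and SEMA3B, secreted semaphorins, were at -0.39 and 0.47, both short of the threshold after the GC correction (0.151 and 0.222).

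The Golgi enzymes, of which B4GALT1 is 1, held 6 higher and 7 lower genes among 31, with a median of -0.10 (5, 5 and -0.12 after the GC correction). Log2 changes in the list ran from -1.12 to 1.77, and the genes named, those of smallest p, were all higher. POGLUT3, a glucosyltransferase of EGF repeats, had 489, 435 and 566 scaled counts in inhibitor control cells, against 231, 220 and 240 in mimic control cells (log2 change 1.10 ± 0.11, adjusted p = 0.000759). MGAT1, which starts complex N-glycans, was at 0.57 and B3GALT6, which builds the linker of glycosaminoglycans, at 0.60. Of these, B3GALT6 missed the threshold after the GC correction (0.0526). Among 22 YAP and SRF targets 3 were higher and 4 lower, and after the GC correction 2 and 1. NT5E, the ectoenzyme that makes adenosine, had 1195, 1150 and 1282 scaled counts in inhibitor control cells, against 1864, 2006 and 1956 in mimic control cells (-0.68 ± 0.062, adjusted p = 0.000562). MYL9, a myosin light chain, and YAP1 itself were at 0.32 and -0.36, both short of the threshold after the GC correction (0.211 and 0.0922), and AMOTL1, which binds YAP1, was at 0.61 with adjusted p of 0.0658 to 0.087 without any control library but mimic control 3.

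Of 20 keratins and epithelial markers, 10 were tested, 4 were higher in inhibitor control cells, 0 were lower and 6 did not pass, and the whole set summed to 11100 to 12000 scaled counts in inhibitor control cells and to 8240 to 9080 in mimic control cells, while EPCAM and CLDN3 stayed under 3. After the GC correction 2 of the tested genes were higher and 1 was lower. KRT80 and OCLN, a tight junction protein, were picked after their values were seen and did not pass. KRT80 lay at 811 to 956 scaled counts in inhibitor control cells and at 745 to 828 in mimic control cells, and OCLN lay at 65.3 to 132 in inhibitor control cells and at 132 to 234 in mimic control cells. KRT75, a hair follicle keratin, had 1095, 1231 and 1207 scaled counts in inhibitor control cells, against 960, 782 and 951 in mimic control cells (log2 change 0.40 ± 0.092), and its call was lost without inhibitor control 2 (adjusted p = 0.0601) and after the GC correction (0.149). KRT81, KRT18 and KRT8, which share sequence with other keratins or with pseudogenes, were at 0.45, 0.56 and 0.45, and KRT81 missed the threshold after the GC correction (0.0661). CD68, the gene behind the blood marker sum, was at -0.75 ± 0.05. Among the endothelial markers EMCN and TEK had the smallest p, at 0.71 (95% interval -0.97 to 2.39) and -0.33 (-1.15 to 0.49), and neither passed.

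Of 14 tested genes of osteoblasts and bone mineral 1 was higher and 2 were lower, beside 11.5% and 12.3% of all genes tested: ANKH, a pyrophosphate transporter (log2 change 0.51 ± 0.13), ENPP1, which makes pyrophosphate (-0.44 ± 0.11), and PHEX, an endopeptidase of phosphate balance (-0.41 ± 0.12). Each of these calls was lost in 5 of the 6 fits without a control library (adjusted p 0.0508 to 0.128, all but that without mimic control 1 for ANKH and without inhibitor control 3 for ENPP1 and PHEX), and those of ENPP1 and PHEX after the GC correction (0.176 and 0.358). After the GC correction the osteoblast list held 3 higher and 0 lower genes, at a median of 0.08 in place of 0.14. A set of 13 skeletal genes came from the study itself and is not independent evidence here. Of these, 8 were tested and 1 passed. IFITM1, an interferon-induced membrane protein that shares sequence with its neighbors, had 274, 302 and 301 scaled counts in inhibitor control cells, against 177, 172 and 145 in mimic control cells (0.83 ± 0.11, adjusted p = 0.00185). SRD5A1, a steroid reductase, was at 0.17 (95% interval -0.0021 to 0.34), BMP4, a ligand, at 0.13 (-0.15 to 0.42) and BMPR1A, a BMP receptor, at 0.028 (-0.25 to 0.30). After the GC correction SRD5A1 was called higher as well (0.34, adjusted p = 0.0149). PANX3, VCAN, FGF18 and HJV had log2 changes of -1.24, -1.84, -0.57 and 0.79 at fewer than 25 scaled counts in every control library, none past the threshold.

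The respiratory chain is built from subunits encoded in the nucleus and in mitochondrial DNA. Of 32 nuclear-encoded subunits 10 were higher and 4 lower in inhibitor control cells, with a median of 0.12, and after the GC correction 13 were higher and 1 lower at a median of 0.19. NDUFA2, a subunit of complex I, had 613, 683 and 562 scaled counts in inhibitor control cells, against 364, 353 and 320 in mimic control cells (log2 change 0.84 ± 0.094, adjusted p = 0.00106). ATP5MC1, a ring subunit of the ATP synthase, had 733, 675 and 733 scaled counts in inhibitor control cells, against 472, 489 and 504 in mimic control cells (0.55 ± 0.069, adjusted p = 0.00159). COX4I1, of complex IV, was at 0.24, a call lost without inhibitor control 1 or mimic control 2 (0.0566 and 0.0502), and SDHB, of complex II, at -0.32, lost without inhibitor control 2 or mimic control 1 (0.0585 and 0.0605). Of the 13 mitochondrially encoded genes 4 were lower and 0 higher, with a median of -0.29 that was -0.14 without inhibitor control 3 and -0.46 without mimic control 1 (4 lower, 0 higher and -0.14 after the GC correction). MT-ND4L, the single-copy gene among the 4, had 20840, 22710 and 20910 scaled counts in inhibitor control cells, against 28390, 34860 and 34870 in mimic control cells (-0.60 ± 0.083, adjusted p = 0.00216), and MT-ND4, MT-CO2 and MT-CO1, which have copies in the nuclear genome, were at -0.55, -0.46 and -0.47. In the fit of all 12 libraries MT-ND4, MT-CO2 and MT-CO1 missed the threshold (0.0579, 0.0848 and 0.0998).

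Genes of protein making and breakdown showed calls in both directions. Of 30 cytosolic ribosomal proteins 8 were higher and 3 lower, with a median of 0.09 (7, 2 and 0.01 after the GC correction). RPS21 had 2784, 2667 and 2380 scaled counts in inhibitor control cells, against 1846, 1624 and 1656 in mimic control cells (log2 change 0.61 ± 0.076), while RPS6 had 9958, 10000 and 9860 against 12470, 12740 and 12790 (-0.35 ± 0.041). RPS3 and RPL8 were each at 0.40, and RPL8 missed the threshold after the GC correction (0.121). Of 28 proteasome subunits 6 were higher and 2 lower, and after the GC correction 6 and 0. PSMA7, a chain of the core particle, had 2936, 2890 and 2738 scaled counts in inhibitor control cells, against 1989, 2122 and 2045 in mimic control cells (0.48 ± 0.053, adjusted p = 0.00106), and PSMB5, PSMD3 and PSMC5 were at 0.39, 0.34 and 0.38. Of 28 genes of translation initiation and poly(A) binding 6 were higher and 8 lower, and after the GC correction 4 and 2. PABPC1, the main poly(A)-binding protein, at 19.5% of shared words, had 5483, 4902 and 5682 scaled counts in inhibitor control cells, against 3032, 2992 and 3013 in mimic control cells (0.83 ± 0.061, adjusted p = 0.000256), with 6263 to 7350 in the inhibitor group and 5727 to 9542 in the mimic group. EIF4G2, a scaffold of cap-independent initiation, was at -0.54, EIF6, which keeps ribosomal subunits apart, at 0.49 and EIF4A2, a helicase, at -0.37, of which EIF4A2 missed after the GC correction (0.124).

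Splicing genes were split, with 6 of 29 higher and 5 lower. After the GC correction 7 were higher and 3 lower, and the median went from -0.09 to 0.07. CLK1, a kinase of splicing factors, had 339, 397 and 362 scaled counts in inhibitor control cells, against 564, 553 and 550 in mimic control cells (log2 change -0.60 ± 0.08, adjusted p = 0.0019). SRSF3, a splicing factor, was at 0.37, U2AF2, which binds the polypyrimidine tract, at 0.35 and SNRNP70, a protein of the U1 particle, at 0.37, and after the GC correction U2AF2 and SNRNP70 missed the threshold (0.199 and 0.531). Of 23 heat shock and cytosolic chaperone genes 3 were higher and 2 lower, beside 11.5% and 12.3% of all genes tested. After the GC correction 5 were higher and 1 was lower. HSPB1, a small heat shock protein, had 14010, 13450 and 14340 scaled counts in inhibitor control cells, against 8267, 7964 and 7685 in mimic control cells (0.81 ± 0.049, adjusted p = 0.00017), with no overlap and a call that held after the GC correction. HSPA4, a nucleotide exchange factor, was at -0.37, BAG3, a partner of HSP70, at 0.24 and CCT8, a chaperonin subunit, at -0.22, and all 3 missed the threshold after the GC correction (0.078, 0.252 and 0.595). BAG3 also missed without inhibitor control 1 or mimic control 3 (0.0728 and 0.056) and CCT8 without any control library but inhibitor control 3 (0.0508 to 0.122).

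Oxidant defense, lysosome and traffic genes were mixed. Of 19 genes of the NRF2 response and metallothioneins 6 were higher and 3 lower, and after the GC correction 3 and 3. NFE2L2, the factor NRF2, had 613, 635 and 640 scaled counts in inhibitor control cells, against 868, 821 and 876 in mimic control cells (log2 change -0.44 ± 0.062), while its target NQO1, a quinone reductase, had 7106, 6431 and 6990 against 5582, 5890 and 5744 (0.25 ± 0.053). OSGIN1, an oxidant-induced growth inhibitor, was at 0.49 and missed the threshold after the GC correction (0.157). Of 30 lysosome and autophagy genes 4 were higher and 6 lower, and after the GC correction 3 and 7. LAMP2, a lysosome membrane protein, had 9261, 9555 and 10020 scaled counts in inhibitor control cells, against 12770, 12930 and 13550 in mimic control cells (-0.45 ± 0.049, adjusted p = 0.00101), and CTSL, a lysosomal protease, was at 0.30. Of 29 endocytosis and membrane traffic genes 5 were higher and 9 lower, and after the GC correction 7 and 3. CAVIN1, a coat protein of caveolae, had 26060, 24970 and 25460 scaled counts in inhibitor control cells, against 14160, 14220 and 13420 in mimic control cells (0.87 ± 0.045, adjusted p = 7.65e-05). PICALM, a clathrin adaptor, RAB5A, a GTPase of early endosomes, and EPN1, another adaptor, were at -0.58, -0.61 and 0.35, and all 3 missed the threshold in the fit of all 12 libraries (0.0649, 0.0766 and 0.183).

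Of 27 very long genes, which take hours to transcribe, 9 were lower in inhibitor control cells, 1 was higher and 17 did not pass. The median was -0.25 (5 lower, 1 higher and -0.21 after the GC correction). Among the single-copy genes cut into 10 bins by gene span, the longest bin had a median of -0.19, with 22.8% called lower. After the GC correction that bin had a median of -0.08, with 11.8% called lower. Whether the list differed from other long genes was not tested. PTPRG, a receptor phosphatase, had 1216, 1154 and 1220 scaled counts in inhibitor control cells, against 1525, 1531 and 1744 in mimic control cells (log2 change -0.42 ± 0.069). FBXL7, a ubiquitin ligase subunit, and PARD3, a polarity protein, were at -0.43 and -0.35, and GPC6 was the one higher gene. Without inhibitor control library 2 the list held 3 lower genes in place of 9.

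The fit of all 12 libraries ended 57 of the 179 calls of genes named by the rule, while the same fit without mimic library 3 ended 10. Those of the 57 not given above had adjusted p of 0.0511 for RPL8 to 0.225 for CCT8. Of the genes higher in inhibitor control cells they were CCNB2, CEBPB, STING1, CSF1, NFKBIA, TARBP2, DGCR8, BMP1, WNT5B, SOX12, MMP15, MYL9, KRT75, ANKH, ZFP36, COL11A2, COX4I1, RPL8, RPS3, H1-10, U2AF2, BAG3, NQO1 and IGFBP6. Of the genes lower in inhibitor control cells they were NARS1, COL11A1, PHEX, ACSL3, IFI16, TBK1, TLR7, FOSL1, FGFRL1, FZD8, SDHB, RPS6, EIF4G2, HSPA4, CCT8 and IRS2. Several further lists held fewer calls without 1 library, and the fewest are given for counts of at least 3 that moved by more than 1.5 times. Without inhibitor control 1 these were 4 lower for endocytosis, 2 higher for axon guidance, 3 lower for Golgi enzymes, 3 higher for translation initiation, 2 lower for splicing, 3 lower for Wnt, 2 higher for matrix proteases, 2 higher for lysosome, 2 higher for the insulin-like growth factor list, 1 higher and 2 lower for YAP and SRF targets, 1 higher for NF-kB, 3 higher for endocytosis and 1 lower for NRF2. Without inhibitor control 2 they were 2 lower for BMP, 5 lower for translation initiation and 0 lower for nuclear-encoded oxidative phosphorylation. Without mimic control 2 they were 6 higher for nuclear-encoded oxidative phosphorylation, 5 higher for cytosolic ribosomal proteins and 3 higher for NRF2.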

How the data were processed

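RNA of SW1353 cells was sequenced in 12 libraries, 3 per group, and the 6 control libraries were compared. Per the labels and the submitters' processing notes, the authors used FastQC, Trim Galore, kallisto and sleuth with hg38. Tool versions and the annotation are not given in the sources used here. Values as deposited are a signal: an estimated count per Ensembl gene divided by a library size factor, so count tests did not apply. limma 3.58.1 (R 4.3.3) was fitted to log2(value + 0.5) of the 6 libraries with an intensity trend, two-sided with Benjamini-Hochberg adjustment at 0.05, for 16468 genes that reached 5 in 47% or more of the 12 libraries. The added 0.5 pulls fold changes of low genes toward no change, but values of 0 can push the fitted fold above that of the group means. For ZBTB12, at 0 in mimic control 1 and 3, the fitted fold was 23.7. Its group means were 41.0 scaled counts in inhibitor control cells and 5.58 in mimic control cells. The fit was tested on simulated data. Shared words of 31 bases were counted in GENCODE 29 transcripts.

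The well-expressed single-copy genes (the members) and the 44 lists (1092 symbols, 1090 matched) were chosen with earlier results of these data known, and the figure lists and E2F sites after values were seen. Named genes were the 15 largest called rises and falls without overlap, up to 4 called genes of smallest p per list, members first (the 2 smallest p where none was called), and 8 tested skeletal genes. Some of the genes this rule takes are not reported here. Same-numbered libraries of the 2 controls were not paired (correlation of deviations -0.0185, 0.0737 and 0.0742). Alternatives changed the scaling, pseudocount, filter, trend, weights, libraries fitted, block, shared word limit, GC correction and, added after the data were seen, GC and length correction together. Depth was 10700000 to 12300000 estimated counts per library, so genes at a few counts are less precise.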

Additional observations from a re-analysis of the deposited data

How the results depend on the processing

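Of all genes tested, 1242 were higher and 1137 lower in inhibitor control cells after the GC correction, 1154 and 1070 after the GC and length correction (chosen after seeing the data), 781 and 886 in the fit of all 12 libraries, and 1148 and 1260 without the intensity trend. For the well-expressed single-copy genes these counts were 885 and 900, 830 and 820, 572 and 740, and 776 and 1015. A shared word limit of 5% left 852 higher. The fit of all libraries but mimic replicate 3 gave 1810 higher and 1941 lower of all genes. Leaving out 1 control library gave 1136 to 1612 higher and 1235 to 1991 lower of all genes, and 827 to 1161 higher and 1008 to 1631 lower of the single-copy genes. The lowest counts came without inhibitor control 1 (1136 and 827 higher), mimic control 3 (1235 lower of all genes) and inhibitor control 2 (1008 lower of the single-copy genes). The log2 change of CSF1 turned to -0.01 after the GC correction. A replicate block gave 1812 higher and 1998 lower genes, and same-numbered libraries did not deviate together. Of 179 named genes that were called, 144 kept their call without each of the 6 control libraries. Other scalings ended 1 or 2 of the 179 calls, and pseudocounts of 1 and 5 and array weights ended 0. No filter on low values ended 19, and the fit of all libraries but mimic replicate 3 ended 10. Without the intensity trend 36 were lost. The GC correction ended 45 and reversed the sign of 1 more, and the GC and length correction ended 55. The causes of these changes were not tested. With a filter at a mean of 20, no median could be had for the endothelial markers, since no gene was left.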
